A study of Saccharomyces cerevisiae with 9 samples.

Results

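RNA of 44 genes that budding yeast uses in meiosis and spore formation was measured in cells that carry altered forms of Pcf11, a factor of pre-mRNA 3'-end cleavage and of transcription termination. The genes were taken by their systematic names, 44 of the 5928 genes in the table, and cover the path from entry into meiosis to the finished spore wall. The 9 libraries came from Saccharomyces cerevisiae of the w303 background, mating type alpha, with the marker alleles his3-11,15, ade2-1, ura3-1 and trp1-delta and a leu2 allele that the labels spell differently for Pcf11-DNL than for the other strains. All strains lacked the chromosomal PCF11 gene (pcf11-delta::TRP1) and lived on a LEU2 plasmid with PCF11, named pRS325 in the genotypes and called low copy and centromeric in the sample descriptions. The groups were Pcf11-DNL (plasmid allele written pcf11-deltaN-link with V5 and MYC tags), Pcf11-13 (plasmid allele pcf11-13, no tag named) and wild type (PCF11 with V5 and MYC tags), with 3 biological replicates each. Cultures grew in YPAD at 30 °C, were collected at an optical density (OD600) between 1.0 and 1.2 and carry the treatment label glucose, although the growth text also mentions caffeine. These cells carried 1 mating type and grew in rich medium, and no label puts them in meiosis.

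Meiosis in yeast is set off when a diploid starves. The transcription factor Ime1 then opens the early genes, which make and repair DNA breaks and build the chromosome axis, and Ndt80 opens the middle genes for the divisions and the spore. In growing cells the early genes are held down by Ume6, which binds a promoter element called URS1, and many middle genes by Sum1, which binds the middle sporulation element (MSE) that Ndt80 also uses. In haploids Rme1 represses IME1. Several of these genes are also known for transcripts made across their promoters or against their own strand, whose ends depend on termination factors.

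Poly(A) RNA was sequenced in pairs of 150 bases, per the labels, and the deposited table holds expected counts, the estimated read counts per gene. Library totals lay between 11372819 and 15906466. Levels are given in CPM, read counts scaled to a common library size, and changes as log2 fold changes with their standard error from edgeR's quasi-likelihood test, with p adjusted over all 5646 genes tested (threshold 0.05). No 2 libraries were identical. Among them wild type replicate 1 was the odd one, at a chi-square per degree of freedom of 10.7 and 10.1 against the other wild type libraries, where all other replicate pairs had 2.5 to 4.71. PCF11 itself averaged 67.4 ± 2.56 CPM in Pcf11-DNL, 647.8 ± 32.3 CPM in Pcf11-13 and 84.7 ± 3.05 CPM in wild type (SD, n = 3 each). The level of PCF11 and the allele therefore cannot be told apart. Nor can the tag in either comparison that includes Pcf11-13, with wild type or with Pcf11-DNL. In bulk RNA, fewer cells that express a gene and less RNA per cell cannot be told apart.

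The mating type on the labels was read from marker genes. The 4 alpha-specific genes summed to 1779 to 1873 CPM in Pcf11-DNL, 1464 to 1511 CPM in Pcf11-13 and 2051 to 2357 CPM in wild type. The 6 a-specific genes summed to 43.62 to 46.78 CPM in Pcf11-DNL, 60.9 to 66.32 CPM in Pcf11-13 and 40.55 to 42.14 CPM in wild type. Of these the a-factor gene MFA2 was at 0 in all 9 libraries, and MFA1 was at 0 in all but 1 library of Pcf11-13, where it reached 0.0806 CPM. The alpha-specific genes fell in Pcf11-13 (4 of 4), and the a-specific genes STE2, STE6 and BAR1 rose (3 of 3 tested), with the same counts under library totals. Of all genes tested 30.9% fell and 35.2% rose in Pcf11-13. Leaving out wild type replicate 1 gave 4 of 4 alpha-specific genes lower and 3 of 4 a-specific genes tested higher. In Pcf11-DNL 3 of the 4 alpha-specific genes fell (2 under library totals) and 0 of the 3 a-specific genes passed. The part of these markers in the changes below was not tested.

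The short promoter elements URS1 and MSE tie many of these genes to their known repressors, and the stretches that carry them are printed for genes on which the results turn. A search of the 300 bases before each start codon (build R64, which is sacCer3, both strands) found the URS1 core GGCGGC in 15 of 44 genes (34.1%), against 312 of 6020 protein-coding genes (5.18%). By role it was present in 7 of 12 recombination genes, 4 of 6 genes of the chromosome axis and synaptonemal complex, 1 of 3 division genes and 2 of 5 regulators, and in 1 of 18 spore genes. The sequences below are 40 bases long, 5′ to 3′ on the strand of the gene, with the core in capitals. It reads GCCGCC where it lies on the other strand. REC104 is at chrVIII:412799-412838, plus strand, HOP1 at chrIX:226414-226453, plus strand, SPO13 at chrVIII:131935-131974, plus strand and REC114 at chrXIII:536098-536137, plus strand. MER1 is at chrXIV:250804-250843, plus strand, and DMC1 at chrV:548266-548305, plus strand. ZIP1 at chrIV:1032396-1032435, plus strand and IME4 at chrVII:141997-142036, plus strand carry the same core and passed the test in no comparison. The same holds for MEK1 and MEI5, which are not printed.
REC104: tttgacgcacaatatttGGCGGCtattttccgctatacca
HOP1: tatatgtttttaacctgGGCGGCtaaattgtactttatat
SPO13: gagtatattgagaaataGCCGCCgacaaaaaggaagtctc
REC114: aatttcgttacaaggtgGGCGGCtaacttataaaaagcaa
MER1: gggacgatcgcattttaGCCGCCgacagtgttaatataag
DMC1: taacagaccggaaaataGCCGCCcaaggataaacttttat
ZIP1: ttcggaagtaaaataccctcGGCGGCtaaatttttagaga
IME4: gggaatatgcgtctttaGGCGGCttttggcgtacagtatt

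The longer form of the MSE, GNCACAAA, was found in 12 of 44 genes (27.3%), against 247 of 6020 protein-coding genes (4.1%). It was present in 10 of 18 spore genes and in none of the 12 recombination genes. The shorter core, CACAAA or CGCAAA, which the longer form contains, was in 24 of 44 genes (54.5%), against 29.6% of all. The 40 bases around the element, with GNCACAAA or its reverse complement in capitals, are shown for spore genes that moved in different directions in Pcf11-13. SGA1 (chrIX:177792-177831, plus strand), SPR28 (chrIV:905127-905166, minus strand), SPR3 (chrVII:607263-607302, plus strand) and GAS4 (chrXV:71172-71211, plus strand) rose there. CRR1 (chrXII:568049-568088, minus strand) and SPS4 (chrXV:903044-903083, minus strand) fell there. SSP1 (chrVIII:472630-472669, plus strand) rose in Pcf11-DNL, with no call in Pcf11-13.
SGA1: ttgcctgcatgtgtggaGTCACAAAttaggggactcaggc
SPR28: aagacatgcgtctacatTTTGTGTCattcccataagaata
SPR3: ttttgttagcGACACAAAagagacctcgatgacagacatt
GAS4: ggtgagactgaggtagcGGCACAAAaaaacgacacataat
CRR1: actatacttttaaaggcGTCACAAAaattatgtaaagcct
SPS4: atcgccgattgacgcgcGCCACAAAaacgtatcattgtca
SSP1: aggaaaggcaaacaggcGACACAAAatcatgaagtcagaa

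A match is a description of the letters and shows no binding. Fold changes of genes with and without the elements are given further on.

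The 44 genes were low in all 3 groups. Per kilobase of coding length their median was 7.02 CPM in Pcf11-DNL, 9.27 CPM in Pcf11-13 and 5.79 CPM in wild type, while the median of all genes with a coding length was 41.4 CPM in Pcf11-DNL, 43.02 CPM in Pcf11-13 and 41.1 CPM in wild type. IME4 in Pcf11-DNL, at 44.15 CPM per kilobase, was the 1 value above the median of all genes. Together the genes took 0.0622% of all counts in Pcf11-DNL, 0.0837% in Pcf11-13 and 0.0516% in wild type. Their summed level was 636.5 to 640.3 CPM in Pcf11-DNL, 759.8 to 779.2 CPM in Pcf11-13 and 542.7 to 556.7 CPM in wild type, with no overlap between the groups. Of the 44 genes 43 passed the filter on low counts. SAE3 did not, with 0 or 1 count in each library. MEI5, at under 1.2 CPM in each library, was over the cutoff of the filter in every library of 1 group alone. The other 42 genes were over it in every library of each group.

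**Figure D1:**
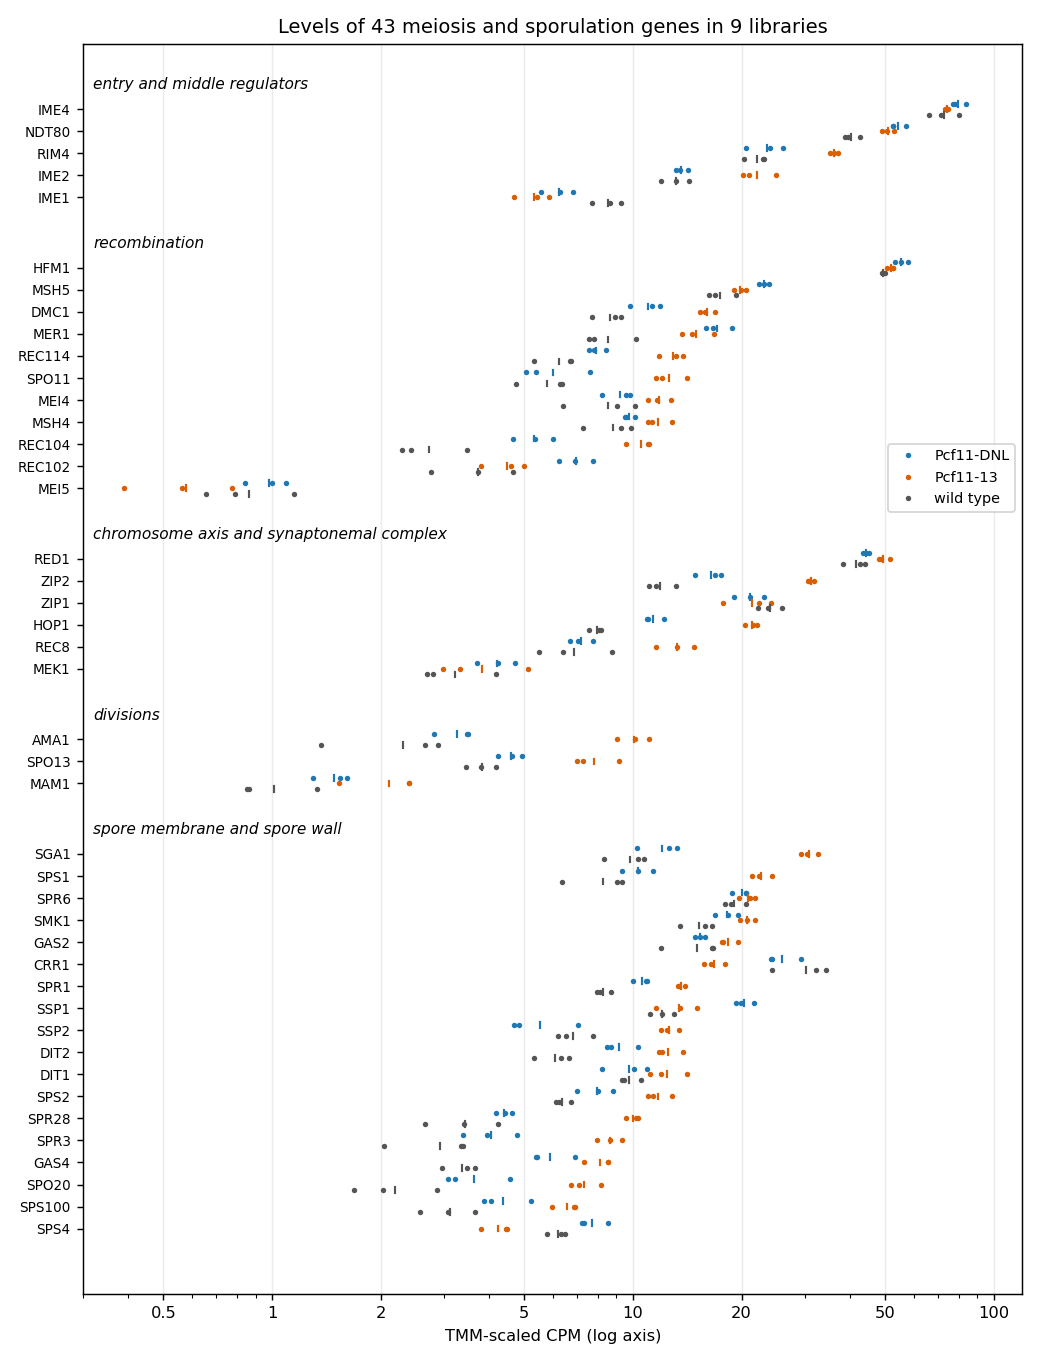
Level of each of the 43 tested genes in each of the 9 libraries (TMM-scaled CPM, log axis), by role. Points are libraries, 3 per group, and ticks the group means; levels are to be compared within a gene, since they are not divided by length. Most rows have the Pcf11-13 points to the right of the wild type points, with Pcf11-DNL often between them, and CRR1, SPS4 and IME1 have the Pcf11-13 points on the left.

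Most of these genes were higher in Pcf11-13 than in wild type. Of the 43 tested, 31 rose and 3 fell (IME1, CRR1 and SPS4), against 35.2% of all genes tested that rose and 30.9% that fell. Their median log2 fold change was 0.75, and that of all genes 0.03. In 32 genes every Pcf11-13 library lay above every wild type library and in 3 below, against 37% and 32.7% of all genes. Low genes as a whole leaned the same way, since of the 3136 genes with a mean in the range of these 44 genes (0.807 to 75.4 CPM) 45.8% rose and 14.2% fell. The counts were also 31 and 3 without wild type replicate 1. In 16 of the 43 genes the log2 fold change was over 1, as it was in 302 of all 5646.

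The changes in Pcf11-DNL were smaller. Here 12 of 43 genes rose and 1 fell (IME1), against 8.73% and 4.3% of all genes tested, at a median log2 fold change of 0.32, where the median of all genes was 0.0006. Without wild type replicate 1, 12 rose and 2 fell, IME1 and CRR1. Among genes in the same range of levels 10.9% rose and 2.14% fell. Every Pcf11-DNL library lay above every wild type library in 21 genes and below in 1, against 17% and 15.8% of all genes. Set directly against Pcf11-13, Pcf11-DNL had 25 of the 43 genes lower and 5 higher, where 30.9% of all genes were lower and 29.5% higher. Low genes as a whole leaned the same way here too, with 38.4% lower and 15% higher in the same range of levels. The median of that comparison was −0.45, and −0.02 for all genes. In 28 genes every Pcf11-DNL library lay below every Pcf11-13 library and in 8 above, against 34.1% and 32.9% of all genes.

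**Figure D2:**
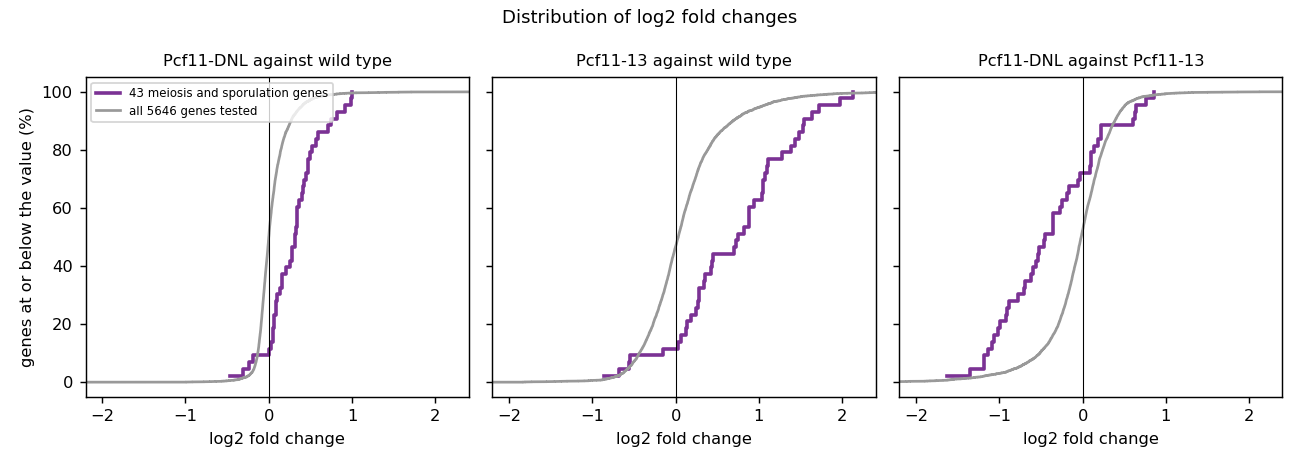
Cumulative share of genes (percent) at or below each log2 fold change, for the 43 tested meiosis and sporulation genes and for all 5646 genes tested, in the 3 comparisons. The curve of the 43 genes lies mostly to the right of that of all genes in both comparisons with wild type (medians 0.32 in Pcf11-DNL and 0.75 in Pcf11-13) and mostly to the left in Pcf11-DNL against Pcf11-13 (median −0.45).

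The regulators at the head of the path did not move together. IME1 (YJR094C, chromosome X, 604569 to 605651, minus strand, 284 bases past the end of IRT1 on the same strand), the master activator of entry, was lower in both mutants, and its target kinase gene IME2 was higher in Pcf11-13. IME1 had 6.29, 5.55 and 6.84 CPM in Pcf11-DNL, 5.42, 5.85 and 4.67 CPM in Pcf11-13, and 7.72, 9.26 and 8.65 CPM in wild type. All libraries of either mutant lay below all wild type libraries. IME1 fell in Pcf11-13 (−0.68 ± 0.15, edgeR adjusted p = 0.000685). It also fell in Pcf11-DNL (−0.46 ± 0.14, edgeR adjusted p = 0.0451), a call that 11 of 17 alternatives ended, with values between −0.53 and −0.39. Among them were library totals, both fits with replicate number as a block, and the fits that left out Pcf11-13 replicate 1, any library of Pcf11-DNL, or replicate 2 or 3 of wild type. The gene upstream of IME1, IRT1, makes a non-coding RNA across the IME1 promoter and was not analysed here.

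IME2 stood at 13.5, 13.1 and 14.2 CPM in Pcf11-DNL, at 21.0, 20.1 and 24.9 CPM in Pcf11-13 and at 14.3, 13.1 and 12.0 CPM in wild type (YJL106W, chromosome X, 221390 to 223327, plus strand). IME2, the kinase that drives early meiosis, rose in Pcf11-13 (0.75 ± 0.10, edgeR adjusted p = 7.89e-06) with no overlap, whereas the Pcf11-DNL and wild type libraries overlapped (0.06 ± 0.11, edgeR adjusted p = 0.756; −0.01 without wild type replicate 3). RIM4 (YHL024W, chromosome VIII, 56649 to 58790, plus strand, 799 bases past the end of SNF6 on the same strand), an RNA-binding protein that holds back translation of meiotic mRNA, followed the same order. RIM4 measured 26.1, 20.5 and 24.0 CPM in Pcf11-DNL, 36.0, 37.0 and 35.2 CPM in Pcf11-13 and 20.3, 23.0 and 22.9 CPM in wild type. The Pcf11-13 libraries lay above all others (0.70 ± 0.08, edgeR adjusted p = 1.78e-06), and Pcf11-DNL against wild type gave 0.09 ± 0.09, edgeR adjusted p = 0.541. NDT80 (YHR124W, chromosome VIII, 356561 to 358444, plus strand, 479 bases past the end of EPT1 on the same strand), the activator of the middle genes, was the regulator that rose in both mutants. NDT80 had 52.6, 57.2 and 52.4 CPM in Pcf11-DNL, 50.7, 52.9 and 49.0 CPM in Pcf11-13, and 38.6, 42.5 and 39.5 CPM in wild type. Both mutants lay above wild type, with changes of 0.43 ± 0.06, edgeR adjusted p = 0.000183 in Pcf11-DNL and 0.34 ± 0.06, edgeR adjusted p = 0.000134 in Pcf11-13. Between the mutants NDT80 differed by 0.09 ± 0.06, edgeR adjusted p = 0.211 (−0.08 under library totals, also without a call).

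IME4 (YGL192W, chromosome VII, 142246 to 144048, plus strand), the enzyme that methylates adenosines in meiotic mRNA, was the most abundant of the 44 genes per kilobase and passed the test in no comparison. IME4 stood at 78.2, 83.7 and 76.9 CPM in Pcf11-DNL, at 73.3, 74.8 and 74.1 CPM in Pcf11-13 and at 80.3, 71.5 and 66.3 CPM in wild type. The log2 fold change was 0.14 ± 0.06, edgeR adjusted p = 0.145 in Pcf11-DNL and 0.03 ± 0.06, edgeR adjusted p = 0.639 in Pcf11-13. Under library totals, where the median of all genes in Pcf11-13 moved to 0.245, IME4 passed in both (0.19 and 0.25), and without wild type replicate 1 it passed in Pcf11-DNL (0.21, edgeR adjusted p = 0.0131). An antisense RNA, RME2, is annotated across IME4. Whether counting used strand is not given in the sources used here, so reads of IME4 and RME2 cannot be told apart. The same holds for ZIP2 with RME3 and for SPS100 with SUT169.

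Of the 11 recombination genes tested, 7 rose and none fell in Pcf11-13, and 5 rose and none fell in Pcf11-DNL. Of all genes tested 35.2% rose in Pcf11-13 and 8.73% in Pcf11-DNL, and of genes in the same range of levels 45.8% and 10.9%. These shares also stand beside the counts of the roles below, and differences between roles were not tested. REC104 (YHR157W, chromosome VIII, 412907 to 413455, plus strand), a subunit of the complex in which Spo11 cuts DNA, had the highest fold change of this role in Pcf11-13. REC104 had 4.65, 5.34 and 5.99 CPM in Pcf11-DNL, 11.0, 11.1 and 9.59 CPM in Pcf11-13, and 3.46, 2.296 and 2.42 CPM in wild type. The 3 groups did not overlap, with Pcf11-13 highest and wild type lowest. Relative to wild type REC104 was 1.98-fold in Pcf11-DNL (0.98 ± 0.19, edgeR adjusted p = 0.00247) and 3.93-fold in Pcf11-13 (1.98 ± 0.17, edgeR adjusted p = 6.81e-08). SPO11 (YHL022C, chromosome VIII, 62961 to 64157, minus strand, 304 bases past the end of AIM17 on the same strand), which encodes the cutting enzyme, rose in Pcf11-13. SPO11 measured 5.06, 7.59 and 5.38 CPM in Pcf11-DNL, 11.6, 12.0 and 14.1 CPM in Pcf11-13 and 6.30, 4.74 and 6.36 CPM in wild type. All Pcf11-13 libraries lay above all others (1.11 ± 0.16, edgeR adjusted p = 1.84e-05), while Pcf11-DNL overlapped wild type (0.06 ± 0.18, edgeR adjusted p = 0.875). REC114 (YMR133W, chromosome XIII, 536207 to 537609, plus strand), a partner of Mei4 in break formation, rose in Pcf11-13. REC114 stood at 7.79, 8.43 and 7.53 CPM in Pcf11-DNL, at 11.8, 13.8 and 13.1 CPM in Pcf11-13 and at 5.32, 6.75 and 6.68 CPM in wild type. Its change was 1.03 ± 0.13, edgeR adjusted p = 2.56e-06 in Pcf11-13 and 0.33 ± 0.13, edgeR adjusted p = 0.115 in Pcf11-DNL, where the libraries lay above wild type without passing the test. MEI4 (YER044C-A, chromosome V, 238460 to 239774, minus strand, 257 bases past the end of ACA1 on the same strand) rose in Pcf11-13 (0.45 ± 0.15, edgeR adjusted p = 0.0117). MEI4 averaged 9.21 ± 0.868 CPM in Pcf11-DNL, 11.8 ± 0.851 CPM in Pcf11-13 and 8.52 ± 1.92 CPM in wild type (SD, n = 3 each).

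REC102 (YLR329W, chromosome XII, 786442 to 787333, plus strand, 323 bases past the end of NMA1 on the same strand), a further subunit of the break-making complex, showed the opposite order of the mutants. The Pcf11-DNL libraries of REC102 held 7.73, 6.25 and 6.92 CPM, the Pcf11-13 libraries 3.80, 5.00 and 4.59 CPM, and the wild type libraries 3.73, 4.66 and 2.75 CPM. All Pcf11-DNL libraries lay above all others, and those of Pcf11-13 and wild type overlapped. The change was 0.91 ± 0.19, edgeR adjusted p = 0.00476 in Pcf11-DNL and 0.27 ± 0.20, edgeR adjusted p = 0.249 in Pcf11-13, and Pcf11-DNL was higher than Pcf11-13 (0.64 ± 0.19, edgeR adjusted p = 0.00762). MER1 (YNL210W, chromosome XIV, 250931 to 251743, plus strand), a meiotic splicing factor, rose in both mutants by similar amounts. MER1 had 16.6, 15.9 and 18.8 CPM in Pcf11-DNL, 13.7, 16.8 and 14.6 CPM in Pcf11-13, and 7.54, 10.2 and 7.80 CPM in wild type. Both mutants lay above wild type (1.00 ± 0.13, edgeR adjusted p = 6.97e-05 in Pcf11-DNL, 0.82 ± 0.13, edgeR adjusted p = 3.97e-05 in Pcf11-13) and overlapped each other (0.19 ± 0.12, edgeR adjusted p = 0.183).

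DMC1 (YER179W, chromosome V, 548421 to 549517, plus strand, 341 bases past the end of PDA1 on the same strand), the meiotic recombinase that finds the homologous strand, rose in Pcf11-13. DMC1 stood at 11.3, 9.83 and 11.9 CPM in Pcf11-DNL, at 16.9, 15.3 and 15.8 CPM in Pcf11-13 and at 7.72, 8.90 and 9.24 CPM in wild type. The groups did not overlap, and the change was 0.88 ± 0.11, edgeR adjusted p = 3.39e-06 in Pcf11-13 against 0.34 ± 0.12, edgeR adjusted p = 0.0618 in Pcf11-DNL (0.39 and called at 0.0409 under library totals). MEI5 and SAE3 encode the helper complex of Dmc1 in loading on DNA. MEI5 had no call in either comparison with wild type (0.21 ± 0.39, edgeR adjusted p = 0.766 in Pcf11-DNL, −0.56 ± 0.44, edgeR adjusted p = 0.273 in Pcf11-13). Of the genes that stabilise crossover intermediates, MSH4 (YFL003C, chromosome VI, 134521 to 137157, minus strand, 328 bases past the end of YNCF0004C on the same strand) rose in Pcf11-13 (0.43 ± 0.13, edgeR adjusted p = 0.0073) and its partner MSH5 (YDL154W, chromosome IV, 178334 to 181039, plus strand, 277 bases past the end of CLB3 on the same strand) rose in Pcf11-DNL (0.40 ± 0.08, edgeR adjusted p = 0.00394). MSH4 averaged 9.73 ± 0.359 CPM in Pcf11-DNL, 11.7 ± 0.957 CPM in Pcf11-13 and 8.79 ± 1.35 CPM in wild type (SD, n = 3 each). MSH5 averaged 23.1 ± 0.728 CPM in Pcf11-DNL, 19.8 ± 0.773 CPM in Pcf11-13 and 17.5 ± 1.63 CPM in wild type (SD, n = 3 each). The helicase gene HFM1 (YGL251C, chromosome VII, 27921 to 31636, minus strand) rose in Pcf11-DNL by 1.12-fold (0.16 ± 0.05, edgeR adjusted p = 0.0489), a call that did not outlast most alternatives, every one that left out a library included. HFM1 averaged 55.4 ± 2.31 CPM in Pcf11-DNL, 51.9 ± 1.15 CPM in Pcf11-13 and 49.4 ± 0.493 CPM in wild type (SD, n = 3 each).

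In the chromosome axis and synaptonemal complex, the structures that hold homologous chromosomes together, 4 of 6 genes rose in Pcf11-13 and 2 of 6 in Pcf11-DNL, and none fell. The shares of all genes tested that rose were 35.2% and 8.73%. HOP1 (YIL072W, chromosome IX, 226602 to 228419, plus strand) and RED1 build the axis. HOP1 had 11.0, 12.2 and 10.9 CPM in Pcf11-DNL, 22.0, 21.6 and 20.5 CPM in Pcf11-13, and 8.07, 8.18 and 7.54 CPM in wild type. The groups of HOP1 did not overlap, and it rose in both mutants (0.52 ± 0.10, edgeR adjusted p = 0.00295 in Pcf11-DNL, 1.43 ± 0.10, edgeR adjusted p = 3.32e-09 in Pcf11-13). ZIP2 (YGL249W, chromosome VII, 33098 to 35212, plus strand, 462 bases past the end of RMR1 on the same strand), which starts synapsis, had much the same pattern. ZIP2 stood at 16.9, 17.5 and 14.8 CPM in Pcf11-DNL, at 30.6, 30.8 and 31.8 CPM in Pcf11-13 and at 13.1, 11.6 and 11.1 CPM in wild type. It rose by 0.47 ± 0.09, edgeR adjusted p = 0.00316 in Pcf11-DNL and by 1.39 ± 0.09, edgeR adjusted p = 1.61e-09 in Pcf11-13, again with no overlap. REC8 (YPR007C, chromosome XVI, 569336 to 571378, minus strand), the cohesin subunit of meiosis, rose in Pcf11-13. REC8 measured 7.04, 6.67 and 7.76 CPM in Pcf11-DNL, 14.8, 13.2 and 11.6 CPM in Pcf11-13 and 6.39, 8.76 and 5.50 CPM in wild type. Its change was 0.94 ± 0.16, edgeR adjusted p = 5.88e-05 in Pcf11-13, and the Pcf11-DNL libraries lay among those of wild type (0.06 ± 0.17, edgeR adjusted p = 0.863). RED1 (YLR263W, chromosome XII, 670340 to 672823, plus strand) rose in Pcf11-13 by 0.25 ± 0.06, edgeR adjusted p = 0.00197. RED1 averaged 44.2 ± 0.771 CPM in Pcf11-DNL, 49.4 ± 1.79 CPM in Pcf11-13 and 41.5 ± 2.92 CPM in wild type (SD, n = 3 each). MEK1, the kinase that acts on Hop1 and Red1, and ZIP1, the central filament of the complex, passed no test. Their log2 fold changes were 0.41 and −0.19 in Pcf11-DNL, and 0.28 and −0.16 in Pcf11-13.

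All 3 genes of the meiotic divisions rose in Pcf11-13 and none passed in Pcf11-DNL, where 35.2% and 8.73% of all genes tested rose. AMA1 (YGR225W, chromosome VII, 945145 to 947019, plus strand, 497 bases past the end of AZR1 on the same strand), which activates the anaphase-promoting complex in meiosis, had the highest fold change of the 43 tested genes in Pcf11-13. The Pcf11-DNL libraries of AMA1 held 3.49, 2.81 and 3.46 CPM, the Pcf11-13 libraries 9.01, 11.1 and 10.2 CPM, and the wild type libraries 2.66, 1.36 and 2.88 CPM. The Pcf11-13 libraries lay far above the rest, and the Pcf11-DNL and wild type libraries overlapped. AMA1 was 4.38-fold of wild type in Pcf11-13 (2.13 ± 0.21, edgeR adjusted p = 2.42e-07) and 1.41-fold in Pcf11-DNL (0.50 ± 0.24, edgeR adjusted p = 0.192). SPO13 (YHR014W, chromosome VIII, 132047 to 132922, plus strand) helps sister chromatids stay together in the first division. SPO13 had 4.24, 4.92 and 4.61 CPM in Pcf11-DNL, 7.25, 9.16 and 7.01 CPM in Pcf11-13, and 4.17, 3.44 and 3.80 CPM in wild type. It rose in Pcf11-13 (1.05 ± 0.16, edgeR adjusted p = 3.5e-05), with Pcf11-DNL just above wild type in all libraries and no call (0.28 ± 0.18, edgeR adjusted p = 0.314). MAM1 (YER106W, chromosome V, 372326 to 373234, plus strand), a subunit of monopolin at the kinetochore, was near the filter. MAM1 stood at 1.299, 1.55 and 1.61 CPM in Pcf11-DNL, at 2.39, 2.403 and 1.53 CPM in Pcf11-13 and at 1.33, 0.861 and 0.852 CPM in wild type. Its Pcf11-13 libraries lay above wild type (1.09 ± 0.31, edgeR adjusted p = 0.00577), and those of Pcf11-DNL overlapped both groups (0.57 ± 0.33, edgeR adjusted p = 0.269).

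The 18 genes of the spore membrane and spore wall held 2 of the 3 genes that fell in Pcf11-13. In Pcf11-13, 14 rose and 2 fell, against 35.2% and 30.9% of all genes tested, at a median log2 fold change of 0.87. In Pcf11-DNL 4 rose and none fell, against 8.73% and 4.3% of all genes, at a median of 0.33. SPO20 (YMR017W, chromosome XIII, 307489 to 308682, plus strand) encodes a SNARE protein that fuses vesicles into the prospore membrane, which encloses each nucleus. SPO20 had 3.21, 4.57 and 3.07 CPM in Pcf11-DNL, 7.11, 6.76 and 8.14 CPM in Pcf11-13, and 1.69, 2.87 and 2.03 CPM in wild type. The groups did not overlap, and SPO20 was 3.29-fold of wild type in Pcf11-13 (1.72 ± 0.21, edgeR adjusted p = 3.14e-06), with 0.71 ± 0.23, edgeR adjusted p = 0.0588 in Pcf11-DNL. SPR3 (YGR059W, chromosome VII, 607563 to 609101, plus strand, 419 bases past the end of PEF1 on the same strand) and SPR28 (YDR218C, chromosome IV, 903781 to 905052, minus strand, 402 bases past the end of MFB1 on the same strand) encode septins of sporulation. SPR3 stood at 4.79, 3.93 and 3.38 CPM in Pcf11-DNL, at 7.95, 8.64 and 9.34 CPM in Pcf11-13 and at 2.04, 3.37 and 3.34 CPM in wild type. SPR28 measured 4.17, 4.43 and 4.61 CPM in Pcf11-DNL, 9.57, 10.2 and 10.3 CPM in Pcf11-13 and 2.66, 4.23 and 3.41 CPM in wild type. Both rose in Pcf11-13 with no overlap, SPR3 by 1.54 ± 0.19, edgeR adjusted p = 3.01e-06 and SPR28 by 1.53 ± 0.16, edgeR adjusted p = 5.04e-07. In Pcf11-DNL the changes were 0.45 ± 0.21, edgeR adjusted p = 0.173 for SPR3 and 0.34 ± 0.18, edgeR adjusted p = 0.222 for SPR28.

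SPS1 (YDR523C, chromosome IV, 1485566 to 1487038, minus strand, 503 bases past the end of AGE1 on the same strand), a kinase needed to close the prospore membrane, and SPS2, a spore wall gene, lie in tandem. SPS1 had 9.30, 10.3 and 11.4 CPM in Pcf11-DNL, 21.4, 24.2 and 22.4 CPM in Pcf11-13, and 9.31, 9.04 and 6.36 CPM in wild type. SPS1 rose in Pcf11-13 (1.48 ± 0.13, edgeR adjusted p = 5.53e-08), and the Pcf11-DNL and wild type libraries overlapped (0.34 ± 0.14, edgeR adjusted p = 0.123). SPS2 stood at 8.82, 8.01 and 6.99 CPM in Pcf11-DNL, at 11.0, 11.4 and 12.8 CPM in Pcf11-13 and at 6.12, 6.75 and 6.23 CPM in wild type (YDR522C, chromosome IV, 1483795 to 1485303, minus strand, 262 bases past the end of SPS1 on the same strand). The SPS2 groups did not overlap, with 0.88 ± 0.13, edgeR adjusted p = 1.74e-05 in Pcf11-13 and 0.32 ± 0.13, edgeR adjusted p = 0.127 in Pcf11-DNL. SSP2 (YOR242C, chromosome XV, 788742 to 789857, minus strand, 353 bases past the end of PUS7 on the same strand), an activator of the kinase Smk1, rose in Pcf11-13 and had a negative, uncalled value in Pcf11-DNL. The Pcf11-DNL libraries of SSP2 held 7.04, 4.85 and 4.69 CPM, the Pcf11-13 libraries 12.0, 13.4 and 12.4 CPM, and the wild type libraries 6.21, 6.53 and 7.73 CPM. The changes were 0.87 ± 0.15, edgeR adjusted p = 8.24e-05 in Pcf11-13 and −0.31 ± 0.17, edgeR adjusted p = 0.234 in Pcf11-DNL. SSP1 (YHR184W, chromosome VIII, 472744 to 474459, plus strand, 314 bases past the end of GND1 on the same strand), a coat protein of the leading edge of the membrane, rose in Pcf11-DNL. SSP1 had 21.7, 19.3 and 20.0 CPM in Pcf11-DNL, 13.5, 11.6 and 15.1 CPM in Pcf11-13, and 12.1, 11.1 and 13.0 CPM in wild type. The Pcf11-DNL libraries lay above all others (0.75 ± 0.11, edgeR adjusted p = 0.000176), while Pcf11-13 overlapped wild type (0.14 ± 0.11, edgeR adjusted p = 0.273). Pcf11-DNL was also above Pcf11-13 (0.61 ± 0.10, edgeR adjusted p = 0.00011). SMK1 (YPR054W, chromosome XVI, 666280 to 667446, plus strand), the MAP kinase of spore wall assembly, rose in Pcf11-13 (0.44 ± 0.09, edgeR adjusted p = 0.00068). SMK1 averaged 18.2 ± 1.36 CPM in Pcf11-DNL, 20.7 ± 1.01 CPM in Pcf11-13 and 15.3 ± 1.60 CPM in wild type (SD, n = 3 each).

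Among genes of the wall itself and of glycogen breakdown, SGA1 (YIL099W, chromosome IX, 178004 to 179653, plus strand), a glucoamylase that breaks down glycogen in sporulation, had the highest fold change. SGA1 stood at 10.3, 13.2 and 12.6 CPM in Pcf11-DNL, at 30.3, 32.6 and 29.2 CPM in Pcf11-13 and at 8.34, 10.3 and 10.7 CPM in wild type. SGA1 was 3.10-fold of wild type in Pcf11-13 (1.63 ± 0.11, edgeR adjusted p = 2.76e-09), and Pcf11-DNL overlapped wild type (0.28 ± 0.12, edgeR adjusted p = 0.139). GAS4 (YOL132W, chromosome XV, 71300 to 72715, plus strand, 609 bases past the end of HRT1 on the same strand), an enzyme that lengthens the glucan of the spore wall, rose in both mutants. GAS4 had 6.91, 5.41 and 5.38 CPM in Pcf11-DNL, 8.52, 8.51 and 7.33 CPM in Pcf11-13, and 3.46, 3.66 and 2.95 CPM in wild type. The groups did not overlap (0.82 ± 0.17, edgeR adjusted p = 0.00458 in Pcf11-DNL, 1.28 ± 0.17, edgeR adjusted p = 4.78e-06 in Pcf11-13). DIT2 (YDR402C, chromosome IV, 1272234 to 1273703, minus strand) and DIT1 make the dityrosine of the outermost layer and are transcribed away from each other, 898 bases apart. DIT2 measured 8.68, 10.3 and 8.45 CPM in Pcf11-DNL, 13.7, 12.0 and 11.8 CPM in Pcf11-13 and 6.65, 6.32 and 5.31 CPM in wild type. DIT2 rose in both mutants (0.60 ± 0.14, edgeR adjusted p = 0.00874 in Pcf11-DNL, lost without Pcf11-DNL replicate 2 at an adjusted p of 0.0512, and 1.05 ± 0.13, edgeR adjusted p = 3.7e-06 in Pcf11-13). DIT1 (YDR403W, chromosome IV, 1274602 to 1276212, plus strand) rose in Pcf11-13 by 0.36 ± 0.13, edgeR adjusted p = 0.0239, a call lost when Pcf11-13 replicate 2 (0.25) or replicate 2 or 3 of wild type (0.33 and 0.32) was left out. DIT1 averaged 9.74 ± 1.38 CPM in Pcf11-DNL, 12.4 ± 1.57 CPM in Pcf11-13 and 9.78 ± 0.679 CPM in wild type (SD, n = 3 each). SPS100 (YHR139C, chromosome VIII, 378219 to 379199, minus strand, 908 bases past the end of YHR139C-A on the same strand), a protein of spore wall maturation, rose in Pcf11-13. SPS100 stood at 4.03, 3.86 and 5.23 CPM in Pcf11-DNL, at 6.90, 6.89 and 5.96 CPM in Pcf11-13 and at 2.57, 3.66 and 3.08 CPM in wild type. Its groups did not overlap (0.48 ± 0.19, edgeR adjusted p = 0.116 in Pcf11-DNL, 1.07 ± 0.18, edgeR adjusted p = 8.04e-05 in Pcf11-13).

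SPR1 (YOR190W, chromosome XV, 690695 to 692032, plus strand, 720 bases past the end of IES4 on the same strand), a glucanase of the spore, rose in both mutants, with 0.36 ± 0.11, edgeR adjusted p = 0.0344 in Pcf11-DNL and 0.72 ± 0.10, edgeR adjusted p = 1.4e-05 in Pcf11-13. SPR1 averaged 10.6 ± 0.530 CPM in Pcf11-DNL, 13.6 ± 0.327 CPM in Pcf11-13 and 8.24 ± 0.399 CPM in wild type (SD, n = 3 each). The Pcf11-DNL call of SPR1 ended when replicate 1 or 3 of Pcf11-DNL, or replicate 2 or 3 of wild type, was left out (adjusted p between 0.0781 and 0.106). It also ended with the DESeq2 Wald test (0.0863), the compared groups alone (0.0601) and a replicate block on those groups (0.0778). GAS2 (YLR343W, chromosome XII, 816094 to 817761, plus strand, 110 bases past the end of YLR342W-A on the same strand), a relative of GAS4, rose in Pcf11-13 by 0.28 ± 0.11, edgeR adjusted p = 0.0378, but not without any one of the Pcf11-13 libraries (0.23 to 0.31) or wild type replicate 2 (0.14). GAS2 averaged 15.4 ± 0.486 CPM in Pcf11-DNL, 18.3 ± 1.04 CPM in Pcf11-13 and 15.1 ± 2.67 CPM in wild type (SD, n = 3 each). SPR6 (YER115C, chromosome V, 394292 to 394867, minus strand, 480 bases past the end of SLX8 on the same strand), of unknown function, passed no test, with 0.07 in Pcf11-DNL and 0.13 in Pcf11-13 (0.34 and called under library totals). CRR1 (YLR213C, chromosome XII, 566654 to 567922, minus strand), a putative wall-modifying enzyme of the spore, was one of the pair of spore genes that fell in Pcf11-13. CRR1 had 24.1, 24.3 and 29.3 CPM in Pcf11-DNL, 16.5, 15.8 and 18.05 CPM in Pcf11-13, and 24.3, 34.2 and 32.2 CPM in wild type. All Pcf11-13 libraries lay below all others (−0.86 ± 0.12, edgeR adjusted p = 6.96e-06), and Pcf11-DNL overlapped wild type (−0.24 ± 0.11, edgeR adjusted p = 0.167; −0.36 and a call at 0.0118 without wild type replicate 1). SPS4 (YOR313C, chromosome XV, 901858 to 902874, minus strand), a sporulation gene of unclear function, was the other. SPS4 stood at 8.55, 7.31 and 7.22 CPM in Pcf11-DNL, at 4.43, 4.48 and 3.79 CPM in Pcf11-13 and at 5.77, 6.32 and 6.49 CPM in wild type. SPS4 fell in Pcf11-13 (−0.55 ± 0.15, edgeR adjusted p = 0.00509; −0.33 and no call under library totals), and its Pcf11-DNL libraries lay above wild type without passing (0.31 ± 0.14, edgeR adjusted p = 0.161).

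**Figure D3:**
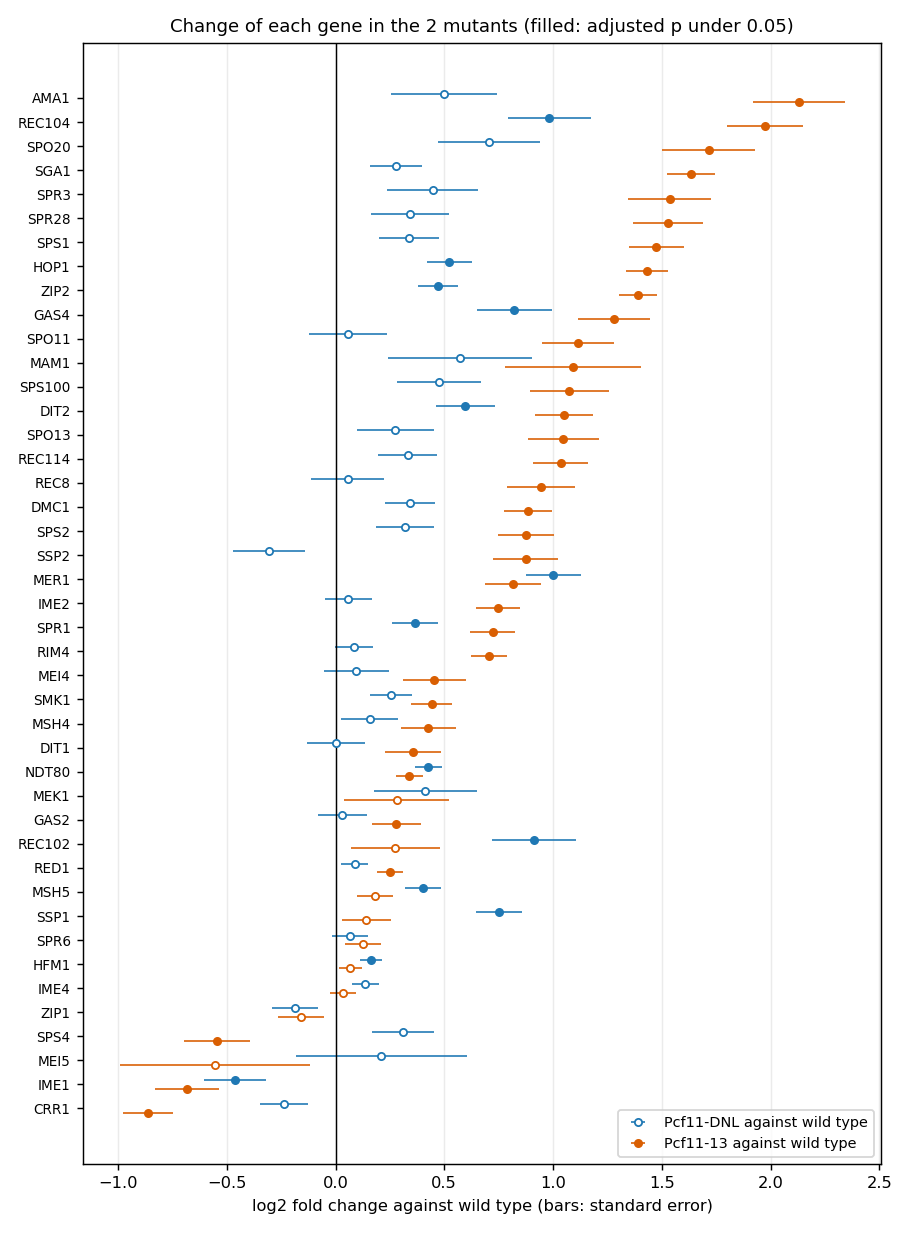
Log2 fold change of each of the 43 tested genes against wild type in Pcf11-DNL (upper, blue) and Pcf11-13 (lower, orange), sorted by Pcf11-13; bars are standard errors, and filled points passed the test at an adjusted p under 0.05. AMA1 heads the list at 2.13 in Pcf11-13 and 0.50 in Pcf11-DNL, CRR1 ends it at −0.86 and −0.24, and SSP1 and REC102 have the Pcf11-DNL point on the right.

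Set side by side, 8 genes rose against wild type in both mutants: DIT2, GAS4, HOP1, MER1, NDT80, REC104, SPR1 and ZIP2. A further 23 rose in Pcf11-13 with no call in Pcf11-DNL, and 4 (HFM1, MSH5, REC102 and SSP1) rose in Pcf11-DNL with no call in Pcf11-13. Under library totals these 4 also passed in Pcf11-13 (HFM1 0.28, MSH5 0.39, REC102 0.49 and SSP1 0.35), and DMC1 (0.39), SPO20 (0.75) and SMK1 (0.31) passed in Pcf11-DNL. IME1 fell in both. CRR1 and SPS4 fell in Pcf11-13 with no call in Pcf11-DNL. No gene rose in one and fell in the other. Both lists rest on the same 3 wild type libraries, so their overlap is not given as a result of its own. The direct comparison of the mutants does not use those libraries for its estimate. In it 25 of the 31 genes that rose in Pcf11-13 were lower in Pcf11-DNL, among them 6 of the 8 that rose in both. It does use the Pcf11-13 libraries by which these 31 genes were picked, so that direction was favoured in advance. This count too is therefore not given as a result of its own.

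The largest of these differences were in AMA1 (−1.63 ± 0.20, edgeR adjusted p = 3.21e-06), SGA1 (−1.36 ± 0.10, edgeR adjusted p = 2.39e-08), SPR28 (−1.19 ± 0.15, edgeR adjusted p = 7.01e-06) and SSP2 (−1.18 ± 0.15, edgeR adjusted p = 6.75e-06). HOP1 (−0.91), ZIP2 (−0.92) and REC104 (−0.99), which rose in both mutants, were lower in Pcf11-DNL than in Pcf11-13. MER1 and NDT80 rose in both with no call between them. The genes higher in Pcf11-DNL than in Pcf11-13 were SPS4 (0.86 ± 0.15, edgeR adjusted p = 0.000126), REC102, CRR1 (0.63 ± 0.12, edgeR adjusted p = 0.000252), SSP1 and MSH5 (0.22 ± 0.08, edgeR adjusted p = 0.0277). The difference in MSH5 ended under library totals (0.06) and when replicate 2 or 3 of either mutant was left out (0.19 to 0.23). Those in RED1, DIT1, MEI4 and GAS4 were also lost without single libraries of the mutants. For RED1 these were Pcf11-13 replicates 1 and 3 and each Pcf11-DNL replicate (−0.17 to −0.13), and for MEI4 the same set (−0.40 to −0.28). For DIT1 (−0.37 to −0.24) and GAS4 (−0.43 to −0.39) they were Pcf11-13 replicate 2 and Pcf11-DNL replicates 2 and 3.

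Since Pcf11 acts at the ends of genes, each meiotic gene was set beside the gene directly upstream. Within 1000 bases, 18 tested genes had a measured upstream neighbour on the same strand. In Pcf11-13, 10 of these neighbours rose and 5 fell, against 35.2% and 30.9% of all genes tested, at a median log2 fold change of 0.26, while 14 of the 18 meiotic genes rose, at a median of 0.87. Both rose in 9 pairs, and in 3 the meiotic gene rose while its neighbour fell. AMA1 had AZR1 upstream (0.88, edgeR adjusted p = 2.23e-07), ZIP2 had RMR1 (0.74, 3.8e-05), and SPO11 had AIM17 (0.62, 3.22e-06). SPR28, which rose by 1.53, had MFB1 upstream at 0.04 (edgeR adjusted p = 0.694), and DMC1 had PDA1 at −0.06 (0.29). The 3 opposed pairs were SSP2 with PUS7 (−0.67), NDT80 with EPT1 (−0.21) and RIM4 with SNF6 (−0.18). MEI4 changed less (0.45) than ACA1 upstream of it (1.15), and so did SPS2 (0.88) behind SPS1 (1.48). Across the 18 pairs Spearman's rho was 0.447 in Pcf11-13 and −0.437 in Pcf11-DNL, where both rose in 0 pairs. In Pcf11-13 the downstream neighbours on the same strand gave the same rho, 0.447 over 22 pairs, and neighbours on the other strand gave 0.329 upstream (15 pairs) and 0.315 downstream (12 pairs). The points share their libraries.

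The tested genes were also divided by their nearest upstream gene. In 22 genes it lay on the same strand within 1000 bases, measured or not. Of these, 17 rose and 1 fell in Pcf11-13, at a median of 0.80. In the other 21 it lay on the other strand or farther away, and 14 rose and 2 fell, at a median of 0.75. Of all genes tested 35.2% rose and 30.9% fell in Pcf11-13, and of genes in the same range of levels 45.8% and 14.2%. Whether transcription from a neighbour had a part in these changes was not tested. REC104, SGA1 and HOP1, 3 of the genes with high fold changes, have their upstream neighbour on the other strand. These neighbours were LIN1 (1.35, edgeR adjusted p = 8.16e-11), XBP1 (0.89) and SPO22 (0.27), and were picked out after their values were seen. FRE1, an iron reductase gene beside CRR1 on the other strand, fell with it (−1.32 and −0.86).

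**Figure D4:**
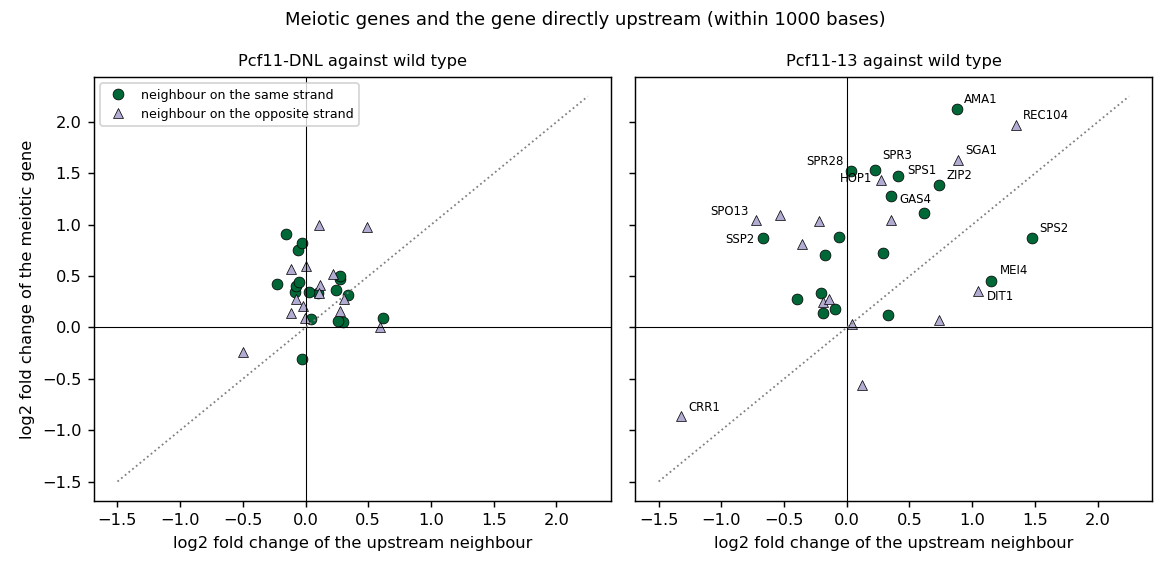
Log2 fold change of each meiotic gene (vertical) against that of the gene directly upstream within 1000 bases (horizontal), in Pcf11-DNL (left) and Pcf11-13 (right), each against wild type; circles are neighbours on the same strand, triangles on the other, and the dotted line marks equal change. In Pcf11-13 AMA1, SPR3, SPR28, SPS1 and ZIP2 lie above the line, SPS2 and MEI4 below it, and in Pcf11-DNL the points lie closer to the centre.

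Counts and medians are given for genes with and without the promoter elements, with no test of the difference. Of all genes tested 35.2% rose and 30.9% fell in Pcf11-13, and 8.73% and 4.3% in Pcf11-DNL. Of 14 tested genes with the URS1 core, 10 rose and none fell in Pcf11-13, at a median log2 fold change of 0.76, and of 29 without it 21 rose and 3 fell, at a median of 0.75. In Pcf11-DNL the counts were 3 and 0 of 14 (median 0.27), and 9 and 1 of 29 (median 0.34). Of 12 genes with GNCACAAA, 9 rose and 2 fell in Pcf11-13 (median 0.66), and of 31 without it 22 rose and 1 fell (median 0.75). In Pcf11-DNL 3 of 12 rose (median 0.33), against 9 of 31 (median 0.28). REC104, printed above, and IME4 carry the same core, and their changes in Pcf11-13 were 1.98 and 0.03, though reads of IME4 and RME2 cannot be told apart. Whether the elements had a part in the changes was not tested.

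Other genes of the same pathway were described from lists by function. Of 15 further genes of recombination and synapsis, 11 were tested, of which 3 rose in Pcf11-DNL and 7 in Pcf11-13, and none fell. In Pcf11-13 the mismatch repair gene MLH3, which resolves crossovers, rose to 67.3 ± 2.53 CPM, against 34.4 ± 2.86 CPM in wild type (SD, n = 3 each; 0.97 ± 0.07, edgeR adjusted p = 4.86e-09). NDJ1, which ties telomeres to the nuclear envelope, rose in both mutants (0.40 in Pcf11-DNL, 1.13 in Pcf11-13), though in Pcf11-DNL not without replicate 3 of that strain (0.35). SPO22, a partner of Zip2 in synapsis, rose by 0.27 and the recombination helper RDH54 by 0.15 in Pcf11-13. In Pcf11-DNL PCH2, a checkpoint ATPase, rose by 0.28 and SPO22 by 0.22, calls that each ended under 9 of 17 alternatives, the loss of wild type replicate 2 or 3 or of Pcf11-DNL replicate 1 or 2 among them. Of 30 further genes of the divisions, spore membrane and spore wall, 29 were tested. In Pcf11-13 20 rose and 1 fell, against 35.2% and 30.9% of all genes tested, at a median of 0.47. In Pcf11-DNL 4 rose and 1 fell, not far from the 8.73% and 4.3% of all genes, at a median of 0.07. The gene that fell was SPS18 in both (−0.51 in Pcf11-DNL, −0.52 in Pcf11-13), with no call in Pcf11-DNL without wild type replicate 1 (−0.40) or in Pcf11-13 under library totals (−0.31). SPO1, a phospholipase-like protein of the prospore membrane, measured 38.9 ± 2.63 CPM in Pcf11-13 and 16.5 ± 0.34 CPM in wild type (SD, n = 3 each; 1.23 ± 0.07, edgeR adjusted p = 1.05e-09). SPO77 (1.46), ADY4 (0.69) and SPS22 (1.83) rose too. In Pcf11-DNL those with the smallest p were SPO77 (0.77), ADY4 (0.35), DTR1 (0.62), which exports dityrosine precursors, and SPO1 (0.28). The call of SPO1 in Pcf11-DNL ended when Pcf11-DNL replicate 2 or 3, or any wild type library, was left out (0.24 to 0.30). Directly compared, Pcf11-DNL was lower than Pcf11-13 in 5 of the 11 genes (MLH3 −0.88, NDJ1 −0.73 and RDH54 −0.24 among them) and in 21 of the 29 (SPO1 −0.95, MPC54 −1.23, SPS22 −1.45 and LOH1 −1.20), and higher in 0 of the 11 and 1 of the 29. Of all genes tested 30.9% were lower in that comparison and 29.5% higher.

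Regulators of entry showed no common direction. RME1, the haploid repressor of IME1, measured 63.3 ± 2.2 CPM in Pcf11-DNL, 72.0 ± 3.08 CPM in Pcf11-13 and 61.1 ± 3.71 CPM in wild type (SD, n = 3 each). It rose in Pcf11-13 (0.23 ± 0.05, edgeR adjusted p = 0.00134) and had 0.05 ± 0.05 in Pcf11-DNL (edgeR adjusted p = 0.608). Of the 38 regulators 12 rose and 16 fell in Pcf11-13, against 35.2% and 30.9% of all genes tested, at a median of −0.10. Under library totals, to which those shares do not apply, 18 rose and 6 fell, at a median of 0.12. UME6, which holds URS1 genes down, stood at 60.4 ± 2.08 CPM in Pcf11-DNL, 49.9 ± 2.47 CPM in Pcf11-13 and 68.3 ± 5.15 CPM in wild type (SD, n = 3 each). UME6 fell in Pcf11-13 (−0.45 ± 0.06, edgeR adjusted p = 7.02e-06, and −0.24, also called, under library totals), with −0.17 ± 0.06 in Pcf11-DNL (edgeR adjusted p = 0.0651; called without wild type replicate 3, at −0.21, and with a replicate block over all 9 libraries, at an adjusted p of 0.0426). RPD3, the deacetylase that works with Ume6, fell in Pcf11-13 (−0.30 ± 0.04, edgeR adjusted p = 1.89e-05), though not under library totals (−0.09). The regulator genes NRG1 (−0.69) and PHD1 (−0.57) fell in Pcf11-13 under both scalings. Those that rose with the smallest p were YAP6 (1.63), RIM15 (0.95), a kinase that acts in entry, MSN4 (0.51) and SLZ1 (10.4 CPM in Pcf11-13 against 4.26 CPM in wild type), a subunit of the mRNA methylation complex, each also called under library totals. In Pcf11-DNL 1 regulator rose, YAP6 (0.29), and 3 fell, KAR4 (−0.26), TUP1 (−0.19) and CYC8 (−0.17), against 6 and 1 under library totals and 4 and 2 without wild type replicate 1. Between the mutants 16 were higher and 14 lower in Pcf11-DNL, but 4 and 18 under library totals. Those higher in Pcf11-DNL with the smallest p were NRG1 (0.89), PHD1 (0.72), TOR1 (0.33) and UME1 (0.40). The calls of TUP1 and CYC8 ended without wild type replicate 1 (−0.12 for each), without Pcf11-13 replicate 3, and without each Pcf11-DNL replicate, and that of CYC8 also without wild type replicate 2. What these levels have to do with the meiotic genes was not tested.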

How the data were processed

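The deposited table holds expected counts per gene, which the authors made with RSEM 1.3 on STAR 2.6.1b alignments to sacCer3 after Trimmomatic 0.38 and FastQC, per the submitters' processing notes; neither strand setting nor annotation release is given in the sources used here. Of its values 10.8% were not whole, and they were rounded. Library totals of 11372819 to 15906466 limit the precision of genes near the CPM cutoff of the filter, 0.713. The 9 libraries, 3 per strain, were fitted together in edgeR 4.0.16 (R 4.3.3) after filterByExpr (minimum count 10) and TMM scaling, with quasi-likelihood tests and Benjamini-Hochberg adjustment over 5646 genes, and checked on simulated data. CPM uses the TMM-scaled totals. Alternatives were DESeq2 1.42.0, other scalings and filters, the compared groups alone, a replicate block, and leaving out each library. The genes and lists were chosen with earlier results of these data known. Genes named outside the 44 were up to 4 with the smallest p in the direction with more calls in each list and comparison, plus RME1 and PCF11, and SPS18, 4 regulators that rose in Pcf11-13 and neighbours named after their values were seen; 1 gene that fits this rule is not reported here. Members given per library were the 25 largest changes and the 5 regulators. Promoters and neighbours came from the R64 genome and annotation.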

Additional observations from a re-analysis of the deposited data

How the results depend on the processing

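Of the calls against wild type, 9 of 13 in Pcf11-DNL and 31 of 34 in Pcf11-13 held under all 17 alternatives, as did 25 of 30 between the mutants; those lost are named above. The number of genes lower in Pcf11-DNL than in wild type was 1 (IME1). It was 0 under library totals, the DESeq2 Wald test, the compared groups alone and both fits with a replicate block, and 0 to 2 when single libraries were left out. Signs turned, with no call on either side, for IME2 in Pcf11-DNL (−0.0056 without wild type replicate 3, up to 0.118 without wild type replicate 1) and IME4 in Pcf11-13 (-0.031, up to 0.106, under the same omissions), and for IME4 (-0.059) and NDT80 (-0.075) in Pcf11-DNL against Pcf11-13 under library totals. The cause was not tested. Library totals moved the median of all genes in Pcf11-13 to 0.245 and the counts of members to 16 higher and 0 lower in Pcf11-DNL, 37 and 2 in Pcf11-13, and 4 and 30 between the mutants. The shares of all genes printed above are from the main fit and do not stand beside counts under library totals. With single libraries left out, 10 to 12 members were higher in Pcf11-DNL and 29 to 31 in Pcf11-13, and 4 to 5 were higher and 21 to 26 lower in Pcf11-DNL than in Pcf11-13. Same-numbered replicates correlated in their deviations at −0.133 to 0.321, not over 0.1 in every pair, so the numbers were not taken to pair the samples. With the replicate block over all 9 libraries, 12 members were higher and 0 lower in Pcf11-DNL, and 31 and 3 in Pcf11-13; with the compared groups alone 10 were higher in Pcf11-DNL. MEI5, at 10 to 16 counts in Pcf11-DNL and wild type libraries and 6 to 11 in Pcf11-13, had a standard error of 0.39 to 0.44, and its difference of 0.77 between the mutants did not pass (edgeR adjusted p = 0.129).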

Other observations

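The side of the downstream neighbour and the presence of an intron divided the genes as follows, with no test. Of 16 members whose downstream neighbour converges on them, 6 rose in Pcf11-DNL and 13 in Pcf11-13, where the median log2 fold change was 0.88 and none fell. Of 27 with the downstream neighbour on the same strand, 6 rose and 1 fell in Pcf11-DNL, and 18 rose and 3 fell in Pcf11-13, at a median of 0.72. Of the 6 members with an intron, 2 rose in Pcf11-DNL and 4 in Pcf11-13 (median 0.67), and of the 37 without, 10 and 27 (median 0.75 in Pcf11-13). The 6 haploid-specific genes summed to 701.5 to 720.8 CPM in Pcf11-DNL, 635 to 681.5 CPM in Pcf11-13 and 739.5 to 758.8 CPM in wild type. Of them 1 fell and none rose in Pcf11-DNL, while 2 rose and 2 fell in Pcf11-13 (3 and 1 under library totals). Of all genes tested 8.73% rose and 4.3% fell in Pcf11-DNL, and 35.2% and 30.9% in Pcf11-13.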
